A study of Homo sapiens with 2 samples.

Results

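The insulin-like growth factor (IGF) receptors and IGF binding proteins (IGFBPs) were examined in ACHN, a widely used cell line from a human kidney cancer. Of 9 genes named for this family, 6 were listed in the files among 12014 rows of protein-coding genes. The listed genes were the receptors IGF1R and IGF2R and the binding proteins IGFBP3, IGFBP4, IGFBP6 and IGFBP7. INSR, IGFBP1 and IGFBP2 were not listed and were not analysed here. The cells had been infected with lentivirus that expressed a short hairpin RNA (shRNA) directed at KIAA1429, the group shKIAA1429, or a control hairpin, the group shNC, and puromycin was used to select stable lines. KIAA1429 is a subunit of the complex that places N6-methyladenosine (m6A) on mRNA. The labels call the first group a knockout, whereas the study's methods describe an shRNA knockdown, and which KIAA1429 shRNA was sequenced is not named. Each group had 1 library of poly(A)-selected RNA, so every difference below is between 2 libraries, has no replicate error and carries no p-value.

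IGF1 and IGF2 are secreted growth factors that signal mainly through the tyrosine kinase receptor IGF1R, while INSR is the receptor of insulin and also binds IGF2. IGF2R, the cation-independent mannose 6-phosphate receptor, takes IGF2 to lysosomes and has no kinase domain. IGFBPs hold IGFs in the extracellular fluid, lengthen their life and control how much reaches the receptors, and proteases release the ligand by cutting them. IGFBP7 is a distant relative that binds IGFs with low affinity.

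Expression was given as FPKM, fragments per kilobase of transcript and scaled to library size. Levels of genes of different length can therefore be set side by side within a library. Changes are given as log2 ratios of the shKIAA1429 to the shNC value after adding 1 to each FPKM, so low genes appear to change less than they did. Over the 10702 genes whose mean was 1 FPKM or more the median change was 0.06, and rescaling each library to the same sum moved this median by 0.18. The FPKM of all listed genes summed to 283046 with shNC and to 249409 with shKIAA1429, and 13 mitochondrial genes made up 42.2% and 34.6% of it. The changes below were therefore also computed after rescaling with and without the mitochondrial genes. The targeted gene, listed as VIRMA, had 3.92 FPKM with shNC against 3.22 with shKIAA1429, or 82.1% of control. The reference genes ACTB and GAPDH were at 84.1% and 80.7%, so the target lay between them. Its value does not bear out the label of a knockout. Because the reference genes were lower to a like degree, it does not show a knockdown in this library either. Relative to the median of all genes, the log2 change was -0.28 for VIRMA, -0.31 for ACTB and -0.37 for GAPDH. By quantitative PCR and western blot, the paper reports lower KIAA1429 mRNA and protein in ACHN cells with the hairpins. Of 11 renal epithelial markers 10 were listed, and they summed to 706 FPKM with shNC and to 687 FPKM with shKIAA1429. Single markers differed in both directions, from CDH16 at 64.8% to PAX8 at 161% of control. KRT19 held the largest part of the sum, at 292 FPKM with shNC and 212 FPKM with shKIAA1429. Endothelial markers were listed for 0 of 6 genes, fibroblast markers for 2 of 7, leukocyte markers for 2 of 6 and hepatocyte markers for 1 of 6. The highest single value among these was 3.93 FPKM, for the leukocyte gene LYZ in the shNC library. With shKIAA1429 LYZ was at 0.154 FPKM, a log2 change of -2.09. The leukocyte markers summed to 7.80 FPKM with shNC and to 2.21 FPKM with shKIAA1429.

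IGFBP3 and IGFBP4 both carry a TATA box, a core promoter element, at the usual distance before the start of transcription. Windows of 30 bases, from 40 to 11 bases before the RefSeq start on GRCh38.p14, are shown for both genes and for IGFBP6, which has no match there. Whether the element bears on the levels of these genes was not tested. Capitals mark the match to TATATA or TATAAA.
IGFBP3 (chr7:45921283-45921312, minus strand): ccccggcttcTATATAgcggccggcgcgcc
IGFBP4 (chr17:40443410-40443439, plus strand): ccagggaccggTATAAAgtccgggggagcc
IGFBP6 (chr12:53097627-53097656, plus strand): gccggcggctacttaagacagaggggcggc
The element began 30 bases before the start in IGFBP3 and 29 bases before it in IGFBP4. In the same window on the gene's strand, TATATA was found in 1.05% of 35116 RefSeq promoters and TATAAA in 2.34%, and either of them in 3.19%. Over whole promoters of 300 bases and both strands, TATATA was found in 3.99% and TATAAA in 11.5%, and the reverse complement of TATATA is TATATA itself. Neither motif was found anywhere in the promoter of IGFBP6, IGF1R or IGF2R. The promoters of these 5 genes were rich in G and C, from 61.7% for IGFBP6 to 79.7% for IGF1R, against a median of 58.7% over all promoters. IGFBP7 had no entry in the promoter table.

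IGFBP3, the main carrier of IGFs in serum and a known p53 target gene, was the member that differed most between the libraries. The gene (ENSG00000146674.14_3) occupies chr7:45951844-45961473 of GRCh37, on the minus strand. It stood at 9.13 FPKM with shNC and 30.9 FPKM with shKIAA1429, a ratio of 3.39 and a log2 change of 1.66. It was the lowest of the 6 members in the control library and the third highest in the shKIAA1429 library. Among all 10702 genes its level was at rank 3647 from the highest with shNC and at rank 975 with shKIAA1429. Its change was at rank 32 from the highest, and in a bin of 535 genes with mean FPKM between 15.4 and 20.1 a single gene had a higher change. The study's methods give a limit of 1.5 on the log2 scale together with a limit on the P value. Here 1.5 was applied alone, to the log2 ratio of FPKM. IGFBP3 was the 1 of 6 members past 1.5 in either direction, while 0.635% of all genes passed it. Since IGFBP3 was included with its value already known, this count is a description. In these bulk libraries a different share of expressing cells and a different amount of RNA per cell cannot be told apart.

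**Figure D1:**
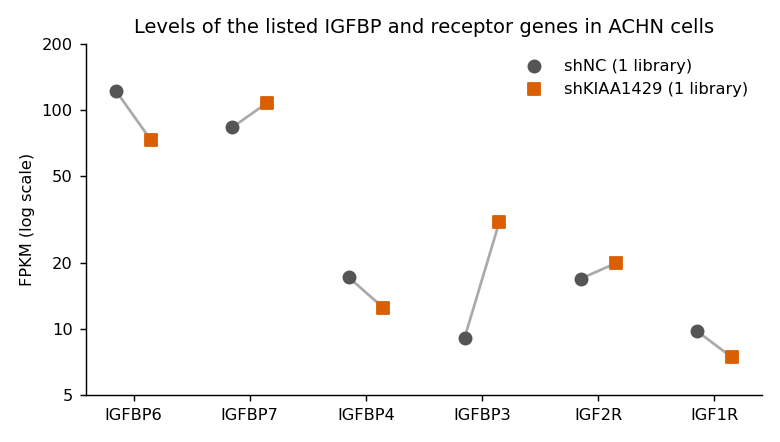
FPKM on a log scale of the 6 listed genes in the shNC library (grey circles) and the shKIAA1429 library (orange squares), 1 library each, with a line joining the values of a gene. IGFBP3 has the steepest line, from 9.13 to 30.9 FPKM, and IGFBP6 and IGFBP7 exchange places at the top.

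IGFBP6, a binding protein with a marked preference for IGF2, was the most abundant member in control cells and was lower in the shKIAA1429 library. The gene (ENSG00000167779.7_2) occupies chr12:53491220-53496129 of GRCh37, on the plus strand. It stood at 122 FPKM with shNC and at 72.6 FPKM with shKIAA1429, or 59.7% of control, a log2 change of -0.74. In FPKM this was the largest difference of any member, 49.0 FPKM less, although it lies within the limit of 1.5. Of all genes, 2.30% had a lower change. Among the 535 genes of the highest bin of mean FPKM, from 48.7 upward, 9 had a lower change.

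IGFBP7, a secreted protein also found in the matrix around vessels, was higher in the shKIAA1429 library by a smaller ratio. The gene (ENSG00000163453.11_2) spans 79.6 kb of GRCh37 at chr4:57896939-57976551, on the minus strand. It stood at 83.3 FPKM with shNC and 108 FPKM with shKIAA1429, a ratio of 1.29 and a log2 change of 0.37. In the same bin of 535 abundant genes 61 had a higher change, and 16.6% of all genes did.

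IGFBP4, an inhibitor of IGF action that the protease PAPPA cleaves, was lower with shKIAA1429. The gene (ENSG00000141753.6_2) occupies chr17:38599713-38613983 of GRCh37, on the plus strand. It stood at 17.2 FPKM with shNC and at 12.5 FPKM with shKIAA1429, or 72.5% of control, a log2 change of -0.43. Of all genes, 8.04% had a lower change. IGFBP4 was at 1.89 times the level of IGFBP3 in control cells and at 0.404 times its level with shKIAA1429.

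**Figure D2:**
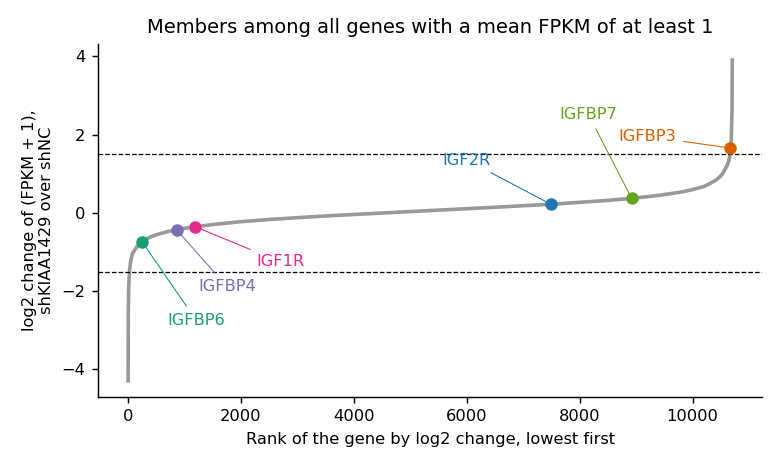
Log2 change of (FPKM + 1), shKIAA1429 over shNC, of 10702 genes ordered from the lowest to the highest (grey line), with the 6 members marked and dashed lines at 1.5 in both directions. IGFBP3 alone lies past a dashed line, at rank 32 from the highest, and IGFBP6 is the lowest member at rank 247 from the lowest.

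Although single binding proteins differed, their sum differed little between the libraries. The 4 listed IGFBP genes summed to 231 FPKM with shNC and to 224 FPKM with shKIAA1429, a ratio of 0.968, or 1.10 after each library was rescaled to the same sum. Shares of this sum do not depend on how a library was scaled. IGFBP6 made up 52.6% of the sum in control cells and 32.4% with shKIAA1429. IGFBP7 made up 36.0% and 48.2%, and so took the first place from IGFBP6. The share of IGFBP3 was 3.95% with shNC and 13.8% with shKIAA1429, and that of IGFBP4 was 7.45% and 5.58%. IGFBP6 was thus at 13.3 times the level of IGFBP3 in one library and at 2.35 times in the other. Without IGFBP7, the weak binder of IGFs, the remaining 3 genes summed to 148 FPKM with shNC and to 116 FPKM with shKIAA1429, and IGFBP3 held 6.17% and 26.7% of that sum.

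**Figure D3:**
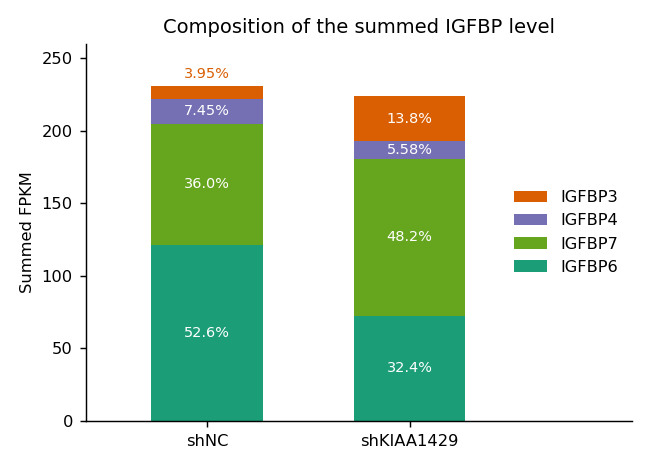
Summed FPKM of the 4 listed IGFBP genes in each library, with the share of each gene in percent written on its segment or above it. The bars are nearly the same height, 231 and 224 FPKM, while the IGFBP6 segment shrinks from 52.6% to 32.4% and the IGFBP3 segment grows from 3.95% to 13.8%.

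The receptor genes differed in opposite directions and by less than IGFBP3 and IGFBP6 did. IGF1R, the tyrosine kinase receptor for IGF1 and IGF2, (ENSG00000140443.13_3) occupies chr15:99192200-99507759 of GRCh37, on the plus strand. It stood at 9.79 FPKM with shNC and at 7.44 FPKM with shKIAA1429, or 76.0% of control, a log2 change of -0.35. Of all genes, 11.1% had a lower change.

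IGF2R (ENSG00000197081.12_3) occupies chr6:160390131-160534539 of GRCh37, on the plus strand. It stood at 17.0 FPKM with shNC and 19.9 FPKM with shKIAA1429, a log2 change of 0.22, and 30.0% of all genes had a higher change. The clearance receptor was therefore the more abundant of these receptor mRNAs in both libraries, at 1.73 times the level of IGF1R with shNC and 2.68 times with shKIAA1429. IGFBP3 stood at 0.933 times the level of IGF1R in control cells and at 4.16 times with shKIAA1429.

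Across the 6 members, 3 were higher and 3 were lower with shKIAA1429. Their median log2 change was -0.07, beside 0.06 over all genes. The change was 0.5 or less in size for 4 of the 6, and for 84.0% of all genes. The order of levels from the highest was IGFBP6, IGFBP7, IGFBP4, IGF2R, IGF1R, IGFBP3 with shNC and IGFBP7, IGFBP6, IGFBP3, IGF2R, IGFBP4, IGF1R with shKIAA1429. With 1 library per group there is no spread against which neighbours in either order could be told apart. Every member kept its direction under each scaling tried. The change of IGFBP3 stayed past 1.5, between 1.60 and 1.91, and that of IGFBP6 lay between -0.79 and -0.56. IGF2R came nearest to 0, at 0.12 with the trend of GC content and length removed, and IGF1R was at -0.21 after rescaling to a common sum. Relative to the median of all genes under that rescaling, IGF1R was at -0.45, IGFBP4 at -0.52, IGFBP6 at -0.80, IGF2R at 0.17, IGFBP7 at 0.31 and IGFBP3 at 1.67.

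**Figure D4:**
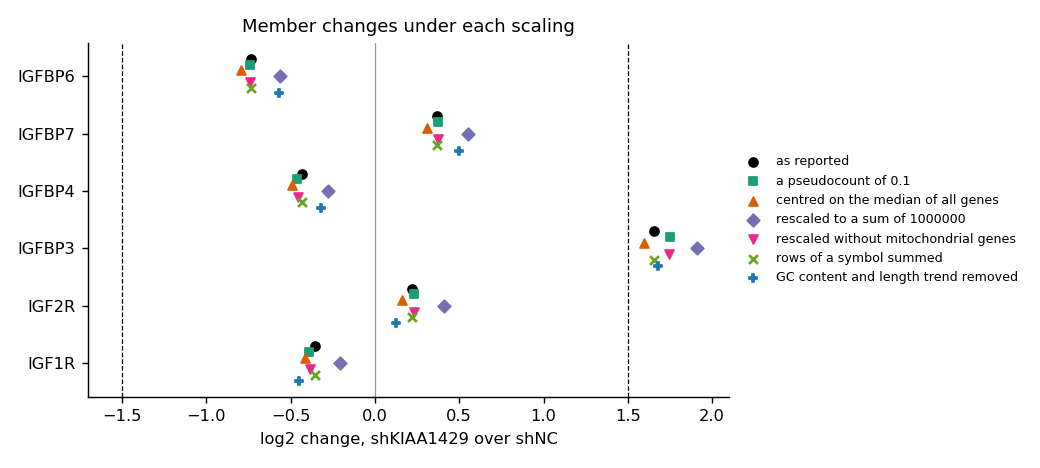
Log2 change of each member under 7 ways of computing it, with one marker shape per setting, a solid line at 0 and dashed lines at 1.5 in both directions. The markers of a gene lie on one side of 0, and those of IGFBP3 lie past 1.5.

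The transcripts of the members differed in length and base composition, which bears on FPKM and on the m6A motif. In GENCODE 29 the longest coding transcript had 12235 bases and 21 exons for IGF1R and 14044 bases and 48 exons for IGF2R. Those of the binding proteins had 2412 bases for IGFBP3, 2200 for IGFBP4, 1177 for IGFBP6 and 1427 for IGFBP7, with between 4 and 6 exons. IGFBP3 had 8 annotated coding transcripts, from 571 to 2412 bases, whereas IGFBP4 had 1. Which of them carried the reads cannot be read from a value per gene. None of the 6 genes overlapped another listed gene on its strand.

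GGACT, written GGACU in RNA and a common form of the sequence at m6A sites, was counted on the sense strand of these transcripts. It occurred 4 times in IGFBP4 and 2 times in IGFBP6, or 1.82 and 1.70 times per kb. It occurred once in IGFBP3 (0.415 per kb) and 0 times in IGFBP7. Over 10644 genes the median was 0.927 per kb, with quartiles at 0.563 and 1.38. The binding proteins with lower values in the shKIAA1429 library thus lay above the upper quartile, and those with higher values lay below the lower one. IGF1R, lower with shKIAA1429, had 9 occurrences (0.736 per kb), and IGF2R, higher with shKIAA1429, had 13 (0.926 per kb). Both receptors lay between the quartiles and did not follow the split, since the one with lower values had fewer occurrences per kb. GC content moved with this split, at 62.5% in IGFBP4 and 64.1% in IGFBP6 against 49.5% in IGFBP3 and 52.1% in IGFBP7, and its part was not tested. With the trend of GC content and length removed, IGFBP4 was at -0.32, IGFBP6 at -0.57, IGFBP3 at 1.68 and IGFBP7 at 0.50. A match of these letters is not a methylated site, and 4 genes cannot carry a relation.

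The nearest listed gene on each side of every IGFBP gene was set beside it. For IGFBP3 these were TBRG4, 800 kb to one side, and TNS3, 1353 kb to the other. Both had nearly equal levels in the libraries, 8.61 and 8.67 FPKM for TBRG4 and 30.5 and 31.2 FPKM for TNS3, with shNC given first. On each side of IGFBP4 the values went the other way from its own. TOP2A, which encodes a topoisomerase of dividing cells and ends 25.5 kb away, was at 26.5 FPKM with shNC and 40.2 FPKM with shKIAA1429, and the chromatin remodelling subunit SMARCE1 was at 14.4 and 20.5 FPKM. Beside IGFBP6, SPRYD3 was at 6.82 and 5.64 FPKM and CSAD at 1.77 and 2.87 FPKM. Beside IGFBP7, NOA1 was at 16.5 and 10.9 FPKM, while CENPC, 10358 kb away, was at 1.25 and 1.42 FPKM.

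The genes nearest to IGFBP3 in level in both libraries, by distance on the log2 scale over the 2 libraries, were AC004922.1, DDX3X and TMEM171. DDX3X, an RNA helicase gene, was at 11.3 FPKM with shNC and 32.1 FPKM with shKIAA1429, at a distance of 0.28. TMEM171 was at 9.18 and 23.0 FPKM. AC004922.1, at 9.81 and 25.7 FPKM, overlaps ARPC1A and ARPC1B on its strand, so its values depend on how reads were divided between them.

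Among the other genes of the insulin and IGF axis, the ligand and acid-labile subunit genes IGF1, IGF2, INS and IGFALS were not listed, nor was IGFBP5. RLN2, a relaxin of the wider insulin family, was listed at 1.29 FPKM with shNC and 0.413 FPKM with shKIAA1429, a mean below 1. Outside the members, 111 genes of the axis had a mean of 1 FPKM or more. Of these, 1 was higher by more than 1.5 and 0 were lower, while 0.383% of all genes were higher and 0.252% lower by that limit. At a limit of 1, 7 were higher and 0 lower, that is 7 of 111 beside 1.61% and 0.897% of all genes. Since the lists were chosen with earlier results of these data known, these counts are a description. The median change of the 111 genes was 0.07. In the lists below, higher and lower are counted from 0, while the median of all genes was 0.06. The share of all genes above 0 is not given, so such splits are a description.

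The list of IGFBP proteases and their inhibitors had the highest median of these lists, 0.51 over 9 genes, beside 0.06 over all genes. Of the 9 genes, 8 were above 0. The files held 11 genes of this list, and those with a mean below 1 FPKM were left out. With the trend of GC content and length removed the median was 0.50. STC2, a stanniocalcin that inhibits the IGFBP protease PAPPA, was at 4.20 FPKM with shNC and 11.3 FPKM with shKIAA1429, a log2 change of 1.24. PLAU, the urokinase that activates plasmin, a protease able to cut IGFBPs, was at 64.0 and 137 FPKM, a log2 change of 1.09. PAPPA itself, named after its values were seen, was at 1.75 and 2.57 FPKM, a log2 change of 0.37. STC1, the paralog of STC2 and named in the same way, was at 4.39 and 7.84 FPKM.

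Partners of IGFBP3 outside the IGF system had a median of 0.34 over 10 genes, with 7 above 0 and 3 below. With the trend of GC content and length removed this median was 0.20. FN1, the matrix protein fibronectin, was at 146 FPKM with shNC and 301 FPKM with shKIAA1429, a log2 change of 1.04. HSPA5, the chaperone of the endoplasmic reticulum, was at 80.6 and 172 FPKM, a log2 change of 1.08. The lowest gene of the list was TMEM219, which encodes a cell surface receptor of IGFBP3 and was named after its values were seen. It was at 18.1 FPKM with shNC and 9.20 FPKM with shKIAA1429, a log2 change of -0.90, opposite to IGFBP3.

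**Figure D5:**
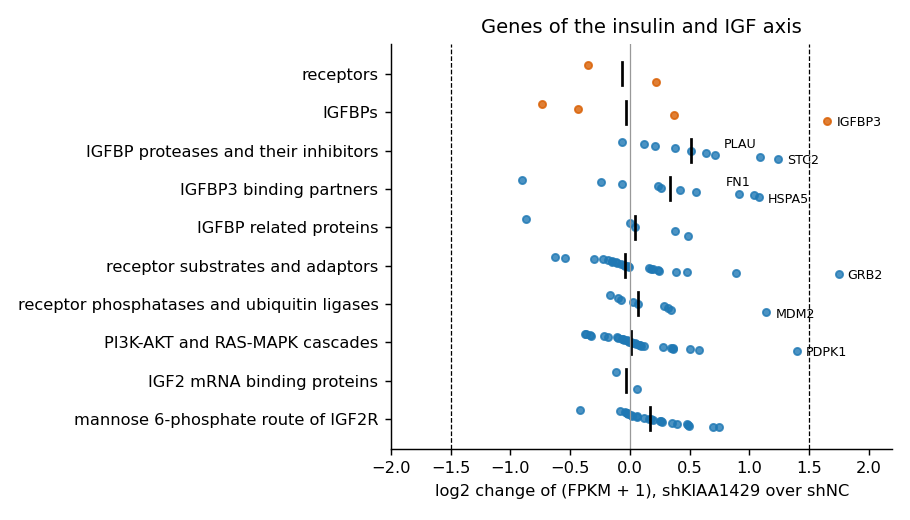
Log2 change of (FPKM + 1), shKIAA1429 over shNC, of each gene with a mean of 1 FPKM or more in the member groups (orange) and the other lists of the axis (blue), with a black bar at the median of a list and dashed lines at 1.5. IGFBP3 and GRB2 lie past 1.5, the 6 other named genes lie between 1 and 1.5, and the medians lie between -0.07 and 0.51.

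Downstream of the receptors most genes had similar values in both libraries. The list of 23 receptor substrates and adaptors had a median change of -0.04, with 9 higher and 14 lower. GRB2, the adaptor that links receptors to RAS, was the gene of this list past 1.5, at 3.95 FPKM with shNC and 15.6 FPKM with shKIAA1429. The substrates that bind IGF1R directly differed less, with IRS1 at 2.50 and 3.58 FPKM and IRS2 at 16.7 and 18.8 FPKM, both named after their values were seen. In the list of 29 genes of the PI3K-AKT and RAS-MAPK cascades the median was 0.01, with 15 higher and 14 lower. PDPK1, the kinase that activates AKT, was at 1.63 and 5.94 FPKM, a log2 change of 1.40, and it has a near-identical pseudogene copy with which its reads could have been divided. Among 9 phosphatases, ubiquitin ligases and processing enzymes of the receptors the median was 0.07. MDM2, a ubiquitin ligase of p53 that also acts on IGF1R, was at 15.7 and 36.0 FPKM, a log2 change of 1.14.

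Genes of the mannose 6-phosphate route, which IGF2R serves as a receptor for lysosomal enzymes, had a median change of 0.17 over 24 genes. The median over all genes was 0.06, and that of the list was 0.03 with the trend of GC content and length removed. Counted from 0, which lies below the median of all genes, 18 of this list were higher and 6 lower. In either direction 0 were past 1, beside 2.5% of all genes. M6PR, the smaller receptor of this route, was at 36.9 FPKM with shNC and 52.2 FPKM with shKIAA1429, and the sorting nexin SNX6 was at 28.6 and 29.9 FPKM. The IGFBP related list of 5 genes had a median of 0.04 and 0 genes past 1. CYR61 was at 286 FPKM in both libraries, and CTGF was at 100.4 and 141 FPKM. The IGF2 mRNA binding proteins, which are also readers of m6A, were nearly level, with IGF2BP2 at 33.5 and 34.9 FPKM and IGF2BP3 at 9.95 and 9.13 FPKM.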

How the data were processed

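RNA of ACHN cells was sequenced in 1 shNC and 1 shKIAA1429 library. The authors deposited FPKM values per gene. The submitters' processing notes name cutadapt 1.9, HISAT2 2.0.4, StringTie 1.3.4d and packages for differential expression, without their roles. The genome build is not given in the sources used here, though identifiers and coordinates match GENCODE genes mapped to GRCh37. Every listed gene was above 0.5 FPKM in at least 1 library. Low values showed no step of whole reads (at best 36.9% of low genes came within 0.1 of a whole number), so depth and counting error are unknown.

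Log2 ratios of shKIAA1429 to shNC were computed from the deposited FPKM with a pseudocount of 1. For 7 symbols with several rows the most abundant row was taken, and genes with a mean below 1 FPKM were left out of counts over all genes. The limit of 1.5 came from the study's methods, which join it to a limit on the P value that was not applied here. No test was possible with 1 library per group. Named were all members, the nearest listed gene on each side of an IGFBP gene and the 3 genes nearest to IGFBP3. From each list, genes past 1 or otherwise the 2 most abundant were named. Outside this rule, the list genes PAPPA, STC1, TMEM219, IRS1 and IRS2 were named after their values were seen. Members and lists were chosen with earlier results of these data known. Alternatives were a pseudocount of 0.1, centring, 2 rescalings, summed rows, a lower limit of 1, filters of none or of a mean of 5 FPKM, and removal of the trend of GC content and transcript length over 10 by 10 bins, with transcripts matched for 99.5% of genes. Promoters came from RefSeq on GRCh38.p14 and were found for 5 of the 6 listed members. The steps were tested on simulated data. Python 3.11.15, NumPy 2.4.6, pandas 2.3.3 and matplotlib 3.10.9 were used.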

Additional observations from a re-analysis of the deposited data

How the results depend on the processing

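The log2 changes of the 6 members kept their direction and their side of 1.5 under a pseudocount of 0.1, centring, both rescalings, summed rows, and after the trend of GC content and length was taken out. The log2 medians of the 8 lists moved by up to 0.33. The sign changed for 4 of them: the IGFBP related list was at -0.01 after centring, the PI3K-AKT and RAS-MAPK list at -0.05 after centring and also below 0 with the trend taken out, the substrates and adaptors at 0.12 and the IGF2 mRNA binding proteins at 0.15 after rescaling to a sum of 1000000. The mannose 6-phosphate list ranged from 0.03 to 0.36. The count of axis genes higher by more than 1.5, which was 1, became 2 with a pseudocount of 0.1 or with rescaling without mitochondrial genes, 3 with rescaling to a sum of 1000000 and 7 with a limit of 1, by construction of these settings in the last case. Without IGFBP7 the shares of the remaining sum were, with shNC and shKIAA1429, 6.17% and 26.7% for IGFBP3, 11.7% and 10.8% for IGFBP4 and 82.2% and 62.6% for IGFBP6, larger by construction. The planned ratio of IGF1R to INSR was not run because INSR is not listed. No paired analysis was possible because each group has a single library, and for the same reason no replicate could be left out. The depth behind a value of FPKM is unknown, which limits every value here, most of all those near 1 FPKM.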
